A study of Mus musculus with 4 samples.

Results

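The mRNAs of 40 mRNA decay factors were examined in RNA recovered with TSSK2 from mouse male germ cells. The members were listed by gene symbol for their role in decay, with no threshold on a measured value. All 40 were found among the 21936 genes of the count table, by Ensembl gene identifier through the GENCODE vM21 annotation of GRCm38. They fell into 5 groups by role, with 9 factors of nonsense-mediated decay (NMD), 11 subunits and partners of the CCR4-NOT deadenylase, 3 further deadenylase genes (Pan2, Pan3 and Parn), 7 genes for decapping and 5′-to-3′ decay, and 10 genes of the RNA exosome. Exosc6, another core exosome gene, was not a member and had no count in any library.

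Decay of a normal cytoplasmic mRNA usually begins with shortening of its poly(A) tail, by PAN2-PAN3 and by CCR4-NOT. The shortened mRNA is then either decapped by DCP2 with its cofactors and digested from the 5′ end by XRN1, or digested from the 3′ end by the exosome. NMD feeds the same enzymes with mRNAs that carry a premature stop codon or a long 3′ untranslated region, through the helicase UPF1, its partners UPF2 and UPF3, the kinase SMG1 and the effectors SMG5 and SMG6. In elongating spermatids transcription has largely ceased, and stored mRNAs are kept in ribonucleoprotein granules. One of these is the late chromatoid body (late-CB), where the testis-specific kinase TSSK2 is found.

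The groups were TSSK2-IP and control IgG-IP, with 2 libraries each. Germ cells of adult C57BL/6 testes were fixed with paraformaldehyde and broken by sonication in lysis buffer. Complexes in the pellet were precipitated with antibody against TSSK2 or with mouse IgG. No mutation, transgene or drug was used, and both groups came from the same kind of cell suspension. RNA was sequenced in directional libraries from which rRNA had not been removed. The measurement is therefore the level of an mRNA in the precipitate and not its level in the cell, and no input library was analysed here. The labels do not say whether replicates came from separate animals, so p-values measure only the spread between these libraries, which may be technical. A precipitate with fewer cells of a type and one with less RNA per cell cannot be told apart.

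Library totals ranged from 3938922 to 9858941 counts, with the highest total in control IgG-IP replicate 1. Levels are given as CPM (counts per 1e6 scaled counts) after scaling with edgeR's TMM method, and 3 counts, the limit that a count of 0 allows, correspond to between 0.468 and 0.689 CPM. This limit covers counting error only. The members had between 11 and 18616 counts in a library, and 34 of them had at least 50 counts in every library. Over all 14722 genes tested, scaled CPM summed to 857300 and 849500 in TSSK2-IP, 1534000 in control IgG-IP replicate 1 and 895200 in replicate 2. Sums over a list are therefore not shares of a common total. Spermatid markers summed to 4390 and 4065 CPM in TSSK2-IP, against 10500 and 5237 CPM in control IgG-IP. Akap4 and Prm2, named here after their values were seen, carried this difference, and the other 6 markers summed to 1863 and 1816 CPM against 1834 and 1725 CPM. The median log2 fold change of the 8 spermatid markers was -0.053, with 3 above 0 and 5 below. Spermatocyte markers summed to 1729 and 1812 CPM in TSSK2-IP, against 2778 and 1568 CPM in control IgG-IP. Ldhc, also named after its values were seen, gave most of this sum, at 1128 and 1284 CPM against 2090 and 1018 CPM. Sycp1 was at 199 and 181 CPM against 223 and 198 CPM. From which cells the RNA of these markers came was not tested. Spermatogonial markers summed to 43.5 and 33.3 CPM against 33.1 and 53.5 CPM. Markers of Sertoli, Leydig, peritubular myoid cells and macrophages each summed to under 40 CPM in every library, with Insl3 at 0 in control IgG-IP replicate 1. The mRNA of Tssk2 itself was at 156 and 144 CPM in TSSK2-IP, against 560 and 205 CPM in control IgG-IP, a log2 fold change of -1.35 ± 0.62 (SE) (edgeR adjusted p = 0.372). This mRNA does not check the precipitation, since the antibody binds the protein.

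Several members are products of duplicated genes, so their mRNAs were compared for stretches that reads could share. The most similar stretch of 60 coding bases is shown here for the 3 pairs whose ratio did not overlap between the groups (below), from GENCODE vM21 transcripts on GRCm38, 5′ to 3′. Capitals mark the bases that differ within a pair, and positions count from the first base of the start codon. In Upf3a (chr8:13785615-13799193, plus strand, coding bases 306 to 365) and Upf3b (chrX:37091678-37110322, minus strand, bases 261 to 320) the stretch was identical at 47 of 60 bases, and the longest identical run was 15 bases.
Upf3a: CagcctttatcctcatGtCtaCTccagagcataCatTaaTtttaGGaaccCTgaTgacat
Upf3b: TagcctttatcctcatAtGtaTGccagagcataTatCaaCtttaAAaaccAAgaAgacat
In Cnot6 (chr11:49671503-49712723, minus strand) and Cnot6l (chr5:96070333-96164171, minus strand), both at coding bases 814 to 873, 53 of 60 bases were identical. The longest identical run in any ungapped alignment of their coding sequences was 20 bases, and it lies outside the stretch shown.
Cnot6: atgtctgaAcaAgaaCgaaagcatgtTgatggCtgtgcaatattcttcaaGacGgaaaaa
Cnot6l: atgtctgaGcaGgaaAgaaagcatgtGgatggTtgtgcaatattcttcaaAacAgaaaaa
In Xrn1 (chr9:95954760-96057803, plus strand, coding bases 81 to 140) and Xrn2 (chr2:147012996-147078000, plus strand, bases 138 to 197), 45 of 60 bases were identical and the longest identical run was 16 bases.
Xrn1: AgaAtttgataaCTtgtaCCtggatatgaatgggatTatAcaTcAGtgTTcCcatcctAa
Xrn2: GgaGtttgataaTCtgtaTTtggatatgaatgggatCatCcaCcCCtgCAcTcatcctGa
The other pairs reached 86.7% identity (Cnot7 and Cnot8) and 78.3% (Dcp1a and Dcp1b) in such a stretch. Longer stretches, of at least 150 bases at 97% identity or more, were searched across all annotated transcripts. They were found outside the gene's own locus for 4 members. Cnot1, Cnot3 and Cnot8 match the processed pseudogenes Gm6158, Gm9207 and Gm18860, none of which is in the count table, and Exosc2 matches short stretches of Snf8 and C030017G13Rik. How reads with several matches were treated is not given in the sources used here, so the values of these 4 genes are uncertain to that extent.

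None of the 40 decay factor mRNAs was called higher or lower when TSSK2-IP was compared with control IgG-IP. A call needed an adjusted p of at most 0.05 in edgeR's quasi-likelihood test and a change of at least 2-fold. Over all 14722 genes tested, 102 (0.693%) were called higher and 0 (0%) lower. At an unadjusted p under 0.05, 1 member was higher (Cnot6l) and 2 were lower (Upf3a and Smg5), against 8.34% and 4.89% of all genes. DESeq2 tested 39 of the members and called 0 in either direction. The lowest adjusted p of a member was 0.330. An exact permutation test of 2 libraries against 2 cannot go below p = 0.333, so it could not call any single mRNA.

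Log2 fold changes of the members ran from -1.65 (Upf3a) to 1.02 (Cnot6l), with standard errors between 0.39 and 0.92. Their median was -0.15, against -0.019 over all genes. The fold change was above 0 for 11 members and below 0 for 29, while 7243 genes lay above 0 and 7479 below in the whole table. Both TSSK2-IP values exceeded both control values for 7 members (Upf3b, Cnot6l, Parn, Dcp2, Xrn1, Exosc3 and Exosc4), 27.3% being the share over all genes. Both lay below both controls for 8 members (Upf3a, Smg1, Smg5, Cnot1, Cnot10, Xrn2, Exosc1 and Exosc10), against 21.6% of all genes. The groups overlapped for the other 25.

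**Figure D1:**
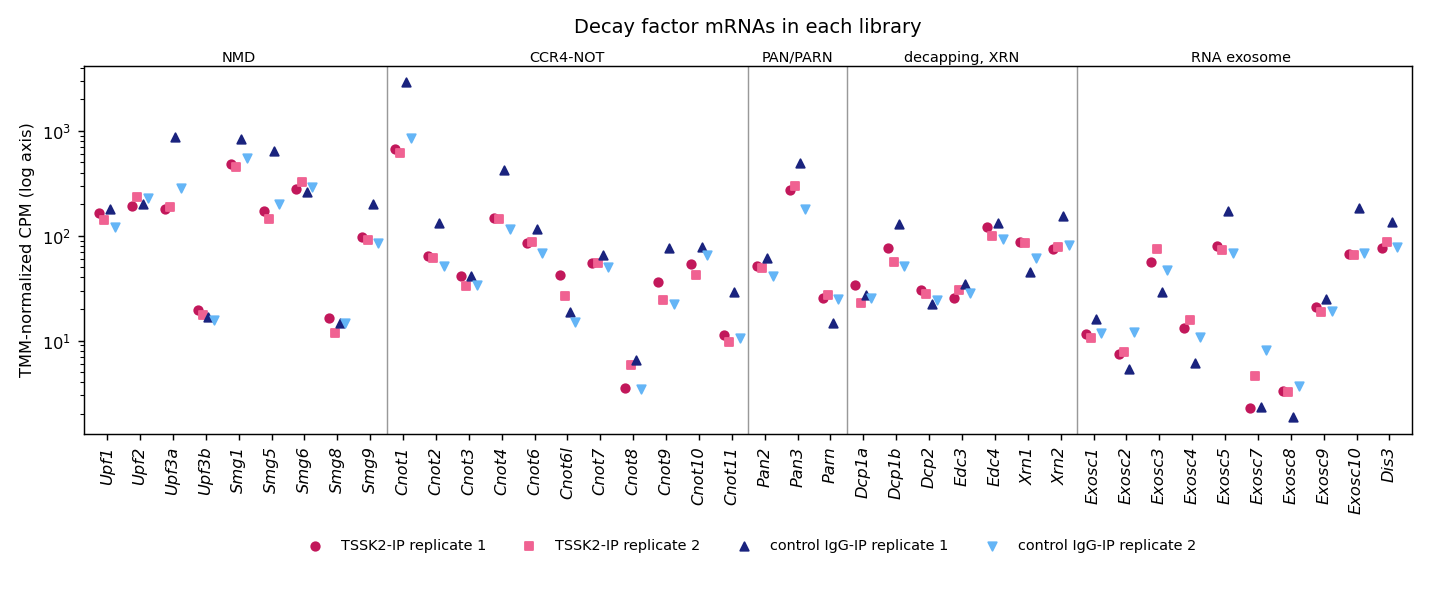
TMM-normalized CPM on a log axis for each of the 40 decay factor mRNAs, ordered by role, with 1 point per library (2 TSSK2-IP, 2 control IgG-IP). The TSSK2-IP points lie close together, while control IgG-IP replicate 1 stands apart from replicate 2 for many genes, most visibly for Cnot1, where the controls were at 2905 and 860 CPM.

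The TSSK2-IP libraries were alike for the decay factors, and the control libraries were not, as was also the case over all genes tested. Differences of 2-fold were counted here from ratios that include a prior count of 2. On this scale no member differed 2-fold or more between the TSSK2-IP replicates (4.95% of all genes did). Between the control replicates, 14 of 40 (35%) differed 2-fold or more (40.8% of all genes). From CPM alone, the scarce Exosc7 just reached 2-fold within TSSK2-IP, at 2.28 and 4.57 CPM (log2 ratio -1.002). Replicates of a member differed by a median of 0.17 (absolute log2) within TSSK2-IP, compared with 0.74 within control IgG-IP. Over all genes tested these medians were 0.22 and 0.85. The SD was larger in the controls for 31 members, a count for which no share over all genes was computed. Of the 14, 12 were higher in control IgG-IP replicate 1 (Upf3a, Smg5, Smg9, Cnot1, Cnot2, Cnot4, Cnot9, Cnot11, Pan3, Dcp1b, Exosc5 and Exosc10). Exosc2 and Exosc7 were higher in replicate 2. Over all genes, 2404 were at least 2-fold higher in replicate 1 and 3604 in replicate 2.

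The difference between the controls went with the level of the mRNA. Across the 40 members, the log2 ratio of control IgG-IP replicate 1 over replicate 2 had a Spearman rho of 0.49 and a Pearson r of 0.52 with the mean log2 level in TSSK2-IP, and across all 14722 genes tested the rho was 0.56. These are descriptions across genes of the same libraries, and genes are not independent replicates. Over all genes tested, CPM summed to 857300 and 849500 in TSSK2-IP, 1534000 in control IgG-IP replicate 1 and 895200 in replicate 2. Summed over the members, CPM was 3973 and 3837 in TSSK2-IP, 8804 in control IgG-IP replicate 1 and 4021 in replicate 2. Cnot1 alone gave 33% of the sum in control IgG-IP replicate 1, against 21.4% in replicate 2 and 17% and 15.9% in TSSK2-IP. Without Cnot1, Upf3a and Smg5, the 4 sums were 2944, 2894, 4386 and 2677 CPM in the same order. Of the 8 spermatid markers, 5 were higher in control IgG-IP replicate 1 than in replicate 2 and 3 were lower, with a median log2 ratio of 0.18, and their part in the members' values was not tested.

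**Figure D2:**
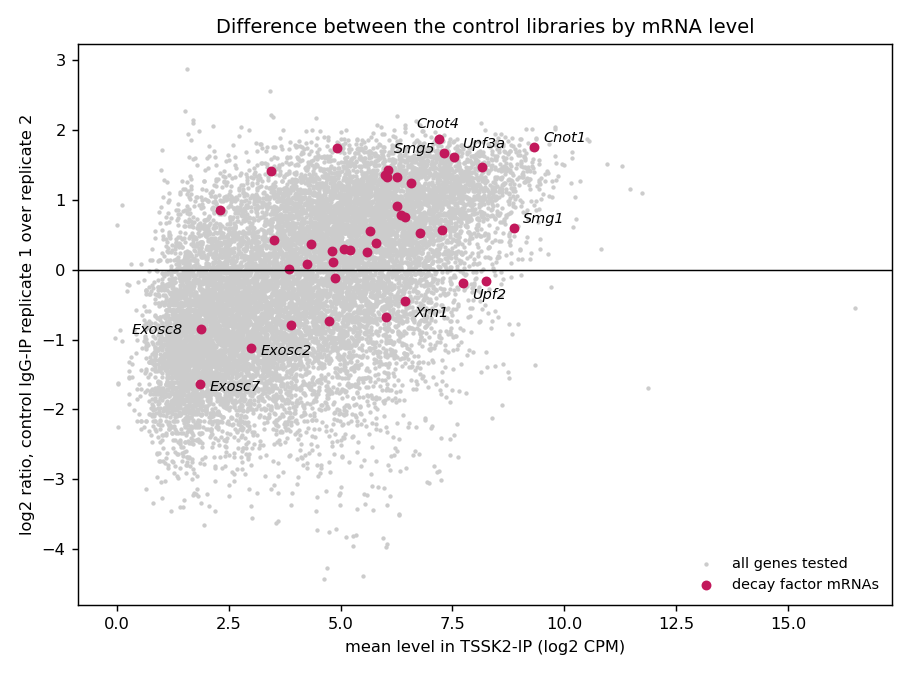
For each gene, the log2 ratio of control IgG-IP replicate 1 over replicate 2 (y axis) against the mean log2 CPM in TSSK2-IP (x axis), with all 14722 genes tested in grey and the 40 decay factor mRNAs in colour. Cnot1 and Upf3a lie high on the right with ratios of 1.76 and 1.62, and Exosc7 lies at the lower left with -1.63 on the same axis (values with a prior count of 2).

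Each value was therefore also computed without either control library. Both fits keep a single control, whose spread is then assumed to be that of the TSSK2-IP pair, so their p-values are far smaller. Without control IgG-IP replicate 1 the median of the members was 0.14 (all genes 0.0029), with 25 members above 0 and 15 below. In that fit 1 member was called higher (Cnot6l; 5.47% of all genes) and 0 lower (2.16% of all genes). Without control IgG-IP replicate 2 the median was -0.36 (all genes 0.15), 2 members were called higher (Exosc3 and Exosc4; 19.4% of all genes) and 12 lower (17.9% of all genes). The 12 were Upf3a, Smg5, Smg9, Cnot1, Cnot2, Cnot4, Cnot9, Cnot11, Dcp1b, Xrn2, Exosc5 and Exosc10, of which all but Xrn2 were at least 2-fold higher in control IgG-IP replicate 1 than in replicate 2. The direction was the same against either control for 19 members, of which 8 were higher and 11 lower in TSSK2-IP. The other 21 changed sign with the control used. No share over all genes was computed for these counts of direction, so they are not results about the members.

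**Figure D3:**
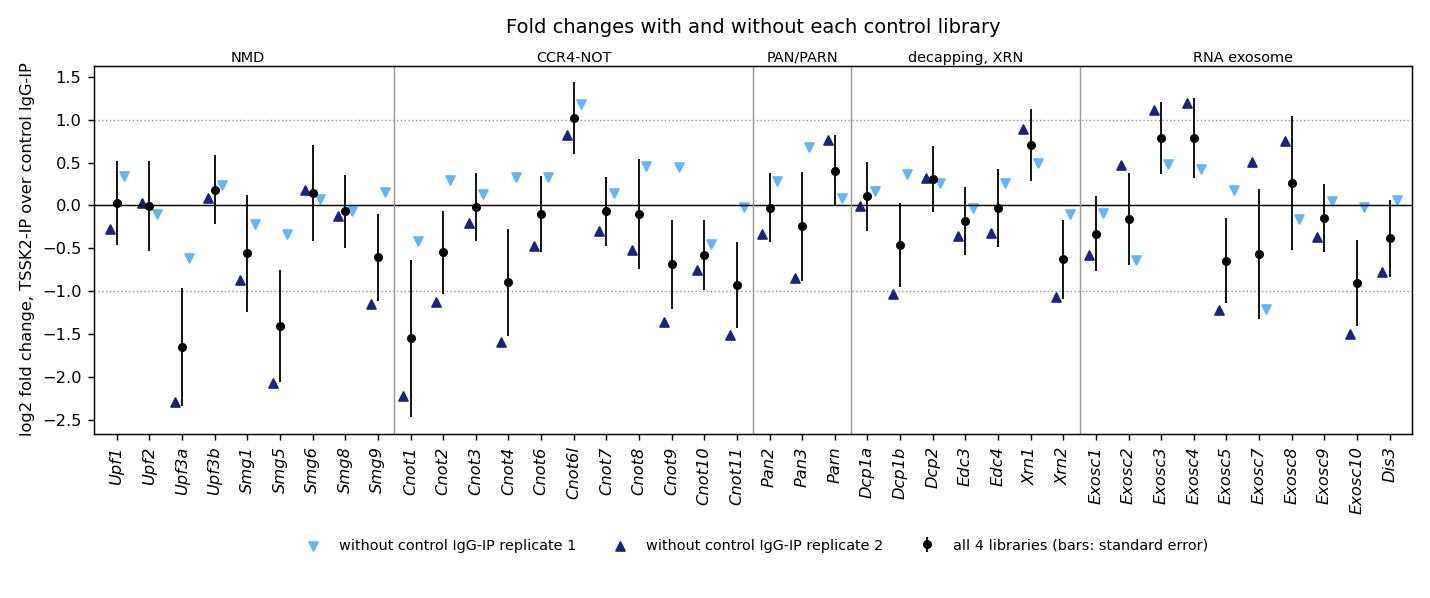
Log2 fold change of TSSK2-IP over control IgG-IP for the 40 decay factor mRNAs (circles, all 4 libraries; bars, standard error of the fit) and the same without control IgG-IP replicate 1 or replicate 2 (triangles). Dotted lines mark a 2-fold change. For CCR4-NOT, 8 of 11 values lie above 0 without replicate 1 and 10 of 11 below 0 without replicate 2.

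The NMD factors held the lowest fold change of the list, that of Upf3a. UPF3A is a paralog of the exon junction complex adaptor UPF3B. Upf3a was at 180.2 and 188 CPM in TSSK2-IP, against 869.7 and 284 CPM in control IgG-IP. Both TSSK2-IP values lay below both controls, and most of the distance was in control replicate 1. The log2 fold change was -1.65 ± 0.69 (SE, n = 2 per group, edgeR adjusted p = 0.341), with -0.62 after removal of control IgG-IP replicate 1 and -2.29 after removal of replicate 2. Smg5, whose product bridges phosphorylated UPF1 to decay enzymes, had the same shape, with 174 and 145 CPM against 643 and 201 CPM. Its fold change was -1.41 ± 0.65 (SE, edgeR adjusted p = 0.376), with -0.33 and -2.07 after removal of either control. Smg1, the kinase that phosphorylates UPF1, was at 488 and 449 CPM against 829 and 548.

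The central NMD helicase and its bridging factor did not separate the groups. Upf1 was at 166 and 140.4 CPM in TSSK2-IP, against 179.6 and 121 CPM in control IgG-IP. The ranges overlapped (log2 fold change 0.029 ± 0.49), and the sign was positive without control IgG-IP replicate 1 (0.35) and negative without replicate 2 (-0.28). Upf2, which joins UPF1 to UPF3, was at 194 and 235 CPM against 202 and 229.8, with a fold change of -0.012 ± 0.52 and values of -0.095 and 0.034 after removal of either control. Upf3b was at 19.7 and 17.5 CPM against 16.9 and 15.9, so the TSSK2-IP libraries were the higher pair by a narrow margin (0.18 ± 0.40). Over the 9 NMD mRNAs, 3 fold changes were above 0 and 6 below, with a median of -0.069 (-0.062 without control IgG-IP replicate 1 and -0.28 without replicate 2). Smg6, the endonuclease of the pathway, was at 282 and 326 CPM against 259 and 290.0 CPM. Smg8, a regulator of SMG1, was at 16.4 and 11.8 CPM against 14.8 and 14.7, and both genes overlapped. Smg9, the partner of SMG8, was at 97 and 91.3 CPM against 202 and 85, and only control IgG-IP replicate 1 stood apart.

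In the CCR4-NOT group, 10 of 11 fold changes were below 0 with a median of -0.55, but this rested on 1 control library. Without control IgG-IP replicate 1 the median was 0.30 with 3 of 11 below 0, and without replicate 2 it was -0.75 with 10 of 11 below 0. The summed level of the group was 1217 and 1099 CPM in TSSK2-IP, 3893 CPM in control IgG-IP replicate 1 and 1297 CPM in replicate 2. The sum over all genes tested was also highest in control IgG-IP replicate 1, at 1534000 CPM against 895200 CPM in replicate 2. Cnot1, the scaffold on which the complex is built, had more counts than any other member in every library, at 675 and 609.7 CPM against 2905 and 860. Both TSSK2-IP libraries lay below both controls, and the controls differed from each other more than TSSK2-IP differed from the lower of them. The fold change was -1.55 ± 0.92 (SE, edgeR adjusted p = 0.461), with -0.42 and -2.23 after removal of control IgG-IP replicate 1 or 2.

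The deadenylase subunits themselves showed other patterns. Cnot6l, a catalytic subunit of the CCR4 type, was at 42.3 and 26.6 CPM in TSSK2-IP, against 18.7 and 15.2 CPM in control IgG-IP. All TSSK2-IP values were higher, and here the larger spread was within TSSK2-IP. Its log2 fold change of 1.02 ± 0.42 (SE, edgeR adjusted p = 0.330) was the highest of the list and stayed above 0.8 against either control, at 1.18 without replicate 1 and 0.82 without replicate 2. Without TSSK2-IP replicate 1 it was 0.65, and without TSSK2-IP replicate 2 it was 1.32. Its paralog Cnot6 was at 85 and 87.7 CPM against 116 and 68.9, which overlap (-0.10 ± 0.44, with 0.33 without control IgG-IP replicate 1 and -0.48 without replicate 2). Cnot7, a catalytic subunit of the CAF1 type, was at 55.4 and 55.4 CPM against 65.7 and 50.3 (-0.068 ± 0.40, with 0.14 and -0.30 after removal of either control). Its paralog Cnot8 was scarce, with 17, 31, 42 and 15 counts in the 4 libraries, and overlapped as well (-0.098 ± 0.64, with 0.46 and -0.52).

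Among the other genes of the group, Cnot10 was the only one besides Cnot1 with both TSSK2-IP values, 53.5 and 42.4 CPM, below both controls, 77.9 and 65.5 CPM. Its controls differed little, and its fold change was -0.58 ± 0.41, with -0.45 and -0.75 after removal of either control. Cnot2, Cnot4, Cnot9 and Cnot11 were each at least 2-fold higher in control IgG-IP replicate 1 than in replicate 2. Their fold changes of -0.55, -0.90, -0.69 and -0.93 in that order became 0.30, 0.33, 0.45 and -0.014 without replicate 1. Cnot3, at 41.3 and 32.9 CPM against 41.2 and 33.8, was nearly the same in both groups (-0.017 ± 0.39).

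Of the other deadenylase genes, Pan3 turned with the control used. PAN3 is the adaptor that brings the nuclease PAN2 to poly(A). Pan3 was at 276 and 296 CPM in TSSK2-IP, between the controls at 497 and 179 CPM. Its fold change was -0.24 ± 0.63 (SE, edgeR adjusted p = 0.891), 0.68 without control IgG-IP replicate 1 and -0.85 without replicate 2. Pan2 overlapped too, at 51.2 and 49.1 CPM against 60.9 and 41.1 (-0.026 ± 0.40). Parn, a separate poly(A) ribonuclease, was at 25.3 and 27 CPM against 14.8 and 24.8, and the lower TSSK2-IP value was just above the higher control (0.41 ± 0.42, with 0.081 and 0.77 after removal of either control).

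Among decapping and 5′-to-3′ decay genes, Xrn1 and Xrn2 lay on opposite sides. Xrn1, the cytoplasmic exonuclease, was at 88.1 and 85.6 CPM in TSSK2-IP, against 45.1 and 61.6 CPM in control IgG-IP. The groups did not overlap, and the fold change was 0.70 ± 0.42 (SE, edgeR adjusted p = 0.461), with 0.50 and 0.89 after removal of either control. Xrn2, the nuclear exonuclease, was at 74.6 and 78.8 CPM against 155 and 82.3. Both TSSK2-IP values were lower, but the higher was close to control IgG-IP replicate 2, and the fold change of -0.63 ± 0.46 (SE, edgeR adjusted p = 0.544) was -0.096 without replicate 1 and -1.06 without replicate 2.

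The decapping enzyme differed little between the groups. Dcp2, the catalytic subunit, was at 30.3 and 27.8 CPM against 22.5 and 24.4, a narrow but complete separation (0.31 ± 0.39, edgeR adjusted p = 0.743). Its cofactor Dcp1a overlapped at 34 and 22.8 CPM against 27.5 and 25.3 (0.11 ± 0.40). Dcp1b, the paralog of Dcp1a, was at 76.3 and 55.6 CPM against 129.7 and 51.2. It had a fold change of -0.46 ± 0.49, which was 0.37 after removal of control IgG-IP replicate 1 and -1.03 after removal of replicate 2. The decapping enhancers Edc3 and Edc4 both overlapped, with fold changes of -0.18 ± 0.39 and -0.032 ± 0.45. The group's median was -0.032, and it turned with the control used, with 0.26 after removal of replicate 1 and -0.32 after removal of replicate 2.

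The exosome fold changes had both signs. Exosc3, an RNA-binding cap subunit, was at 55.8 and 75 CPM in TSSK2-IP, against 29.2 and 46.9 CPM in control IgG-IP. Exosc4, a subunit of the barrel, was at 13.3 and 15.6 CPM against 6.09 and 10.8. In both, the TSSK2-IP pair was the higher, with fold changes of 0.78 ± 0.42 and 0.79 ± 0.47 (SE, edgeR adjusted p = 0.420 and 0.469). The values were 0.49 and 0.42 without control IgG-IP replicate 1, and 1.12 and 1.20 without replicate 2, in that order. Exosc10, the nuclear 3′-to-5′ exonuclease bound to the core, was at 67.6 and 66 CPM against 182 and 67.8. TSSK2-IP and control IgG-IP replicate 2 were thus nearly level, and the fold change of -0.91 ± 0.51 (SE, edgeR adjusted p = 0.434) became -0.017 without replicate 1 and -1.50 without replicate 2.

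Dis3, the main catalytic subunit of the exosome, was at 76.7 and 87.2 CPM in TSSK2-IP, against 135 and 78.6 CPM in control IgG-IP. The ranges overlapped, and the fold change of -0.38 ± 0.45 was 0.066 after removal of control IgG-IP replicate 1 and -0.77 after removal of replicate 2. Exosc1, another cap subunit, was at 11.6 and 10.5 CPM against 15.9 and 11.7, with both TSSK2-IP values below. Exosc5, a barrel subunit, was at 79.4 and 73.8 CPM against 172 and 67.8 and overlapped. Exosc7 and Exosc8, also barrel subunits, were scarce, with 11 to 35 and 12 to 17 counts in a library, and differences between the groups were not detectable at this depth. Exosc2 and Exosc9 overlapped as well. Over the 10 genes, 3 fold changes were above 0 and 7 below, with a median of -0.24. Against either control alone 5 were above 0 and 5 below, with medians of 0.020 without control IgG-IP replicate 1 and 0.052 without replicate 2.

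Ratios between related genes within a library do not depend on how libraries are scaled. They do not remove the difference between the controls, which went with the level of the mRNA. The log2 ratio of Upf3a to Upf3b counts was 3.19 and 3.42 in TSSK2-IP, against 5.69 and 4.16 in control IgG-IP. Upf3a thus had more counts than Upf3b in every library, by less in TSSK2-IP (difference of means -1.62). These are ratios of counts, not of levels per length. The ratio of Cnot6 to Cnot6l was 1.01 and 1.72 against 2.63 and 2.18, also lower in TSSK2-IP (-1.05). The ratio of Xrn1 to Xrn2 was 0.24 and 0.12 against -1.78 and -0.42, so Xrn1 had the more counts in TSSK2-IP and Xrn2 in the controls (difference 1.28). In all 3 pairs, control IgG-IP replicate 1 lay farther from the TSSK2-IP values than replicate 2 did. For each of these 3 pairs the two-sided exact permutation p was 0.333, the smallest that 2 libraries against 2 allow, and 0.556 after adjustment over 5 pairs. Cnot7 to Cnot8 (3.97 and 3.23 against 3.33 and 3.87) and Dcp1a to Dcp1b (-1.17 and -1.28 against -2.24 and -1.02) overlapped.

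**Figure D4:**
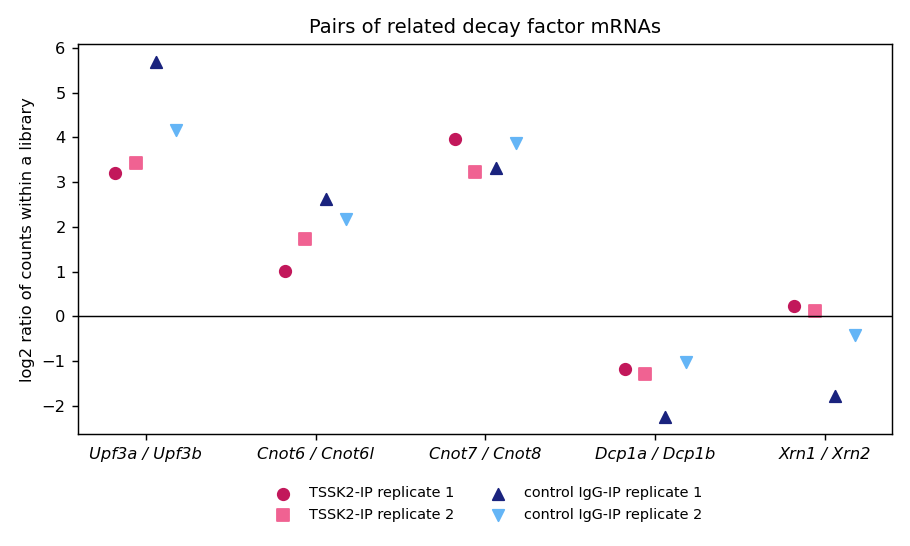
Log2 ratio of the counts of paired decay factor genes within each library (1 point per library, 2 TSSK2-IP and 2 control IgG-IP). Upf3a/Upf3b and Cnot6/Cnot6l are lower and Xrn1/Xrn2 higher in both TSSK2-IP libraries, at 0.24 and 0.12 against -1.78 and -0.42 for the last, while the other pairs overlap.

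Per length of annotated exons, levels ran from 0.698 RPKM (Exosc8) to 73.5 RPKM (Cnot1) as means of the 4 libraries. After Cnot1 came Upf3a (64.8), Smg5 (41.8), Upf2 (39.3) and Exosc3 (39.1 RPKM). Cnot1, Upf3a and Smg5 were highest in control IgG-IP replicate 1, at 169, 148 and 92.5 RPKM in that order. In the TSSK2-IP libraries Exosc3 led with 42.1 and 56.6 RPKM. The order below it differed between these libraries, with Cnot1 at 39.3 and 35.5 and Upf2 at 35.4 and 42.9. Upf1 was at 36 and 30.4 and Smg6 at 33.3 and 38.5 RPKM. RPKM divides by all annotated exon bases of a gene, which understates genes with many unused exons. The transcripts with the longest coding sequence of each member had a median length of 3243 bases against 3015 over all genes, a median GC content of 49% against 50.1%, and 12 exons against 9. Across the 40 members, the log2 fold change had a Spearman rho of -0.23 with GC content and 0.020 with transcript length, as a description across genes.

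Exons of 13 members overlap exons of another counted gene. The share exceeded 10% of exon bases for 3 of them, Edc3 with Clk3 (22.1%), Exosc4 with Oplah (19.8%) and Exosc9 with Ccna2 (10.8%), all on the opposite strand. The libraries kept the strand, but the sources used here do not give the strand setting of the counting, so reads of these partners may not be told apart. Edc4 shares 8.33% of its exon bases with the counted gene Nrn1l on the same strand, where strand does not separate the reads.

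Other genes of the same pathways were followed in 4 lists, and edgeR called 0 of their 73 tested genes and DESeq2 0 of 70 in either direction. Counts at an unadjusted p under 0.05 are given for each list, beside shares over all genes of 8.34% higher and 4.89% lower. The single genes described are those with the smallest p of each list. Of 14 NMD partners, 0 were higher and 1 lower at an unadjusted p under 0.05, and the median fold change was -0.37 (0.043 after removal of control IgG-IP replicate 1 and -0.62 after removal of replicate 2). That gene was Dhx34, an RNA helicase, at 21.4 and 16.9 CPM against 75.4 and 26.4 (-1.41 ± 0.49, edgeR adjusted p = 0.268), with -0.46 after removal of control IgG-IP replicate 1 and -2.03 after removal of replicate 2. Ncbp1, of the nuclear cap-binding complex, was at 196 and 194 CPM against 805 and 236. Rbm8a, of the exon junction complex, was at 14.7 and 19.8 CPM against 3.90 and 13.1.

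Of 23 tested deadenylation partners, 2 were higher and 1 lower at an unadjusted p under 0.05. Their median fold change was 0.31 (0.12 after removal of control IgG-IP replicate 1 and 0.27 after removal of replicate 2). Btg2, which recruits CCR4-NOT, was at 11.8 and 11.6 CPM in TSSK2-IP, against 0.312 (2 counts) and 4.37 CPM in control IgG-IP (2.41 ± 0.79, edgeR adjusted p = 0.252). The fold change was 1.42 without control IgG-IP replicate 1, and no fold is given without replicate 2, where only the 2 control counts would remain. Zfp36l1, which binds AU-rich elements, was at 54.9 and 49.3 CPM against 23.4 and 26 (1.08 ± 0.39, edgeR adjusted p = 0.281), and its fold change hardly moved without either control (1.01 and 1.10). Angel2, a relative of the CCR4 nucleases, was at 28.8 and 24.4 CPM against 81.1 and 32.6.

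The decapping partners held the gene with the smallest p of the 4 lists. Lsm1, of the ring that binds the 3′ end of deadenylated mRNA, was at 18.2 and 17.1 CPM in TSSK2-IP, against 5.62 and 5.51 CPM in control IgG-IP. Replicates were close in both groups, and the fold change of 1.66 ± 0.45 (SE, n = 2 per group, edgeR adjusted p = 0.148) was 1.68 after removal of control IgG-IP replicate 1 and 1.60 after removal of replicate 2. Lsm2, of the same ring, was at 69 and 81.3 CPM against 36.8 and 38.6 (0.99 ± 0.40, edgeR adjusted p = 0.325). Eif4enif1, an eIF4E-binding protein of P-bodies, was at 44.2 and 42.2 CPM against 108 and 58.8. Of the 18 genes tested, 2 were higher and 1 lower at an unadjusted p under 0.05, and the median was 0.0091 (0.18 after removal of control IgG-IP replicate 1 and 0.11 after removal of replicate 2).

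Of 18 tested exosome partners, 1 was higher and 1 lower at an unadjusted p under 0.05. Their median fold change was 0.080 (0.14 after removal of control IgG-IP replicate 1 and -0.0033 after removal of replicate 2). Tent4a, a noncanonical poly(A) polymerase, was at 30.3 and 31.2 CPM against 13.9 and 10.8 (1.31 ± 0.41, edgeR adjusted p = 0.218), with 1.51 and 1.09 after removal of either control. Dis3l, a cytoplasmic relative of Dis3, was at 209 and 187 CPM against 970.5 and 296 (-1.68 ± 0.71, edgeR adjusted p = 0.344), with -0.58 and -2.35. Mphosph6, an exosome cofactor, was at 9.95 and 12.9 CPM against 1.56 and 8.27.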

How the data were processed

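Reads trimmed with Trimmomatic 0.39 and aligned by STAR (2.7.10a per the labels) on GRCm38 were assigned to genes with featureCounts 2.0.3, and the authors deposited these raw counts without normalization. From these counts, 14722 genes kept by filterByExpr were fitted with edgeR 4.0.16 in R 4.3.3 (TMM, glmQLFit, glmQLFTest, Benjamini-Hochberg adjustment over all genes); standard errors come from the fold change and F statistic. Of 21936 identifiers, 21894 matched GENCODE vM21. Similar sequences were searched with BLAST+ 2.17.0. Alternatives were DESeq2 1.42.0 and its size factors, upper-quartile scaling, other filters, a replicate block and leaving out each library. The fits were tested on simulated data. Values in every library are given for the extreme members of each role group, those with an unadjusted p under 0.05, central enzymes, paralog pairs, the 5 highest by RPKM and the 3 partners with the smallest p per list; other members were added as examples. The members and lists were chosen with earlier results of these data known. Libraries of the DDX4-IP were not used here.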

Additional observations from a re-analysis of the deposited data

How the results depend on the processing

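Leaving out 1 library at a time, members called higher ranged from 0 to 2 and lower from 0 to 12, the median fold change from -0.36 to 0.14, members with both TSSK2-IP libraries above the controls from 9 to 20 and below from 11 to 26, and calls over all genes from 24 to 2853 higher and 0 to 2637 lower. Without 1 TSSK2-IP library no member was called. DESeq2's size factors moved the median of all genes from -0.019 to -0.14. The members above both controls were 4 and those below 15 with upper-quartile scaling, and 5 were below without a filter. No share over all genes was computed for these counts or for those with 1 library left out, so they are not results about the members. With 1 library left out, fewer values have to be ordered, and more genes separate by construction. Over all genes, 20 were called higher with upper-quartile scaling, 160 by DESeq2, 283 without a filter, 29 with at least 10 counts in every library and 274 with the replicate block; 1, 24 and 3 were called lower by DESeq2, without a filter and with the replicate block. Libraries with the same number shared only that number (correlation of deviations 0.126, 2 pairs), and the paired fit with the replicate block called 0 members. No member was called under any alternative that kept all 4 libraries. With all 4 libraries kept, signs turned for Upf1 (-0.11 with DESeq2's size factors, -0.070 by DESeq2, -0.020 without a filter), Dcp1a (-0.021 with DESeq2's size factors), and, with at least 10 counts in every library, Upf2 (0.041), Cnot3 (0.049), Cnot7 (0.0005), Pan2 (0.048, and 0.0013 with the replicate block) and Edc4 (0.041), so that 16 members were above 0 in place of 11. Among the members with values in every library, the fold change over the left-out libraries turned sign and ranged from -0.28 to 0.35 for Upf1, -0.16 to 0.12 for Upf2, -0.48 to 0.33 for Cnot6, -0.30 to 0.14 for Cnot7, -0.52 to 0.46 for Cnot8, -0.85 to 0.68 for Pan3, -0.21 to 0.37 for Dcp1a, -1.03 to 0.37 for Dcp1b and -0.77 to 0.066 for Dis3. The cause was not tested.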
